A study of Mus musculus with 2 samples.

Results

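Processed pseudogenes are copies of messenger RNAs that were written back into DNA and inserted elsewhere in the genome. Of the 8924 autosomal genes that the GENCODE M21 annotation of the mouse genome GRCm38 types as processed pseudogenes, 5370 (60.2%) held at least 8 cytosines in CG context with a call and at least 30 calls in each of 2 bisulfite libraries, and these 5370 are described here. Each CpG has a CG cytosine on both strands, so the rule asks for the calls of about 4 CpGs. The 3554 that did not pass were shorter, with a median of 382 bp against 720 bp, and held a median of 3 CpGs against 12. Transcribed processed pseudogenes and unprocessed pseudogenes, which the annotation types separately, are not members and serve as comparison.

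Whole genome bisulfite sequencing (WGBS) was done on primary osteoblasts of 3-day-old C57BL/6 mice after 3 days of culture. The study's methods describe primary osteoblasts as isolated from calvarial bone. The WT library came from mice labelled wild type, and the labels do not say whether they carried floxed alleles or Cre. The TCKO library came from mice with Prx1-Cre and floxed alleles of the 3 Tet genes, Tet1fl/fl, Tet2fl/fl and Tet3fl/fl. The study describes the deletion by Prx1-Cre as one in mesenchymal stem cells. There was 1 library per genotype, so no difference between WT and TCKO has a replicate check, every Fisher exact test is a test between 2 libraries only, and all intervals are 95% Wilson or Newcombe intervals that cover counting error only. The libraries hold no expression values, so the label osteoblast was not checked against marker genes.

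When a spliced messenger RNA is reverse transcribed by the LINE-1 machinery in the germline, the copy lands without introns and without its promoter, often with the remnant of a poly(A) tail. Genes with abundant germline messenger RNA, such as those of ribosomal proteins and glycolysis, have left the most copies. A methylated CpG is prone to deamination and then reads as TG on one strand and CA on the other, so copies lose the CpGs of their parents with age. TET enzymes oxidise 5-methylcytosine and so start its removal, while bisulfite conversion reads 5-methylcytosine and 5-hydroxymethylcytosine alike.

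The WT library held 261127589 CG calls and the TCKO library 223645082, or 6.15 and 5.26 calls per autosomal CG cytosine of the reference. Over the autosomes the pooled level, which is methylated calls over all calls, was 70.4% in WT and 76.6% in TCKO. As a look at the deleted genes, TCKO calls were set against WT calls over each exon with at least 60 WT calls. The median exon had 46.7% of the WT calls over 17 exons of Tet1, 73.8% over 11 of Tet2 and 74.6% over 6 of Tet3. The exons with the lowest share, chosen for it and so no test of the labels, had 62 WT and 1 TCKO calls in Tet1, 180 and 50 in Tet2 and 85 and 26 in Tet3. A pseudogene had a median of 124 calls in WT and 100 in TCKO.

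The sequences printed first show how much CpG content a copy can keep and how differently copies can be methylated. All are from GRCm38, in the sense of the pseudogene, and capitals mark each CpG. Gm7862 and Gm15321 are copies of Hmgn1, which encodes a nucleosome-binding protein, and are shown whole. Rpl36-ps3 is a copy of Rpl36, a protein of the large ribosomal subunit, Gm5814 a copy of Mrfap1, and Gm5251 a copy of Tma16, and of each the 300 bases richest in CpG are shown.
Gm7862 (chr12:76152336-76152627, minus strand): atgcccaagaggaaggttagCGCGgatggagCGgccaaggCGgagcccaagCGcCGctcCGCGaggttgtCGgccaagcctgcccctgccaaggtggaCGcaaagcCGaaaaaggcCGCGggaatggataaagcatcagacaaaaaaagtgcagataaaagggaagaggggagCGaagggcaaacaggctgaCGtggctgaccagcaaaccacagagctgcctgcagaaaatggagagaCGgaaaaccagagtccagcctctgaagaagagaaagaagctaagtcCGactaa
Gm15321 (chr17:34392403-34392690, plus strand): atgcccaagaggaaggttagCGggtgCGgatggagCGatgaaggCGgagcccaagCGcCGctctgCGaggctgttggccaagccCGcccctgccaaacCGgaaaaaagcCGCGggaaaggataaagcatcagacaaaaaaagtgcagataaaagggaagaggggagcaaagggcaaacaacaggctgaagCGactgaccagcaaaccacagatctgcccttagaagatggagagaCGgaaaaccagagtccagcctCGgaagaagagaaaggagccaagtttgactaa
Rpl36-ps3 (chr12:12912025-12912324, plus strand): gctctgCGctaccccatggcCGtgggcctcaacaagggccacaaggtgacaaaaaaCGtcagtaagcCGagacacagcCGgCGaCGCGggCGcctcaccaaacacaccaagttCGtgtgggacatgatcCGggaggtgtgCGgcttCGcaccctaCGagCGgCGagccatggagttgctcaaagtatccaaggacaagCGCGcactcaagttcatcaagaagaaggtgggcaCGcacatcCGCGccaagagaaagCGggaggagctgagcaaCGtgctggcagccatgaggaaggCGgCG
Gm5814 (chr17:47410416-47410715, plus strand): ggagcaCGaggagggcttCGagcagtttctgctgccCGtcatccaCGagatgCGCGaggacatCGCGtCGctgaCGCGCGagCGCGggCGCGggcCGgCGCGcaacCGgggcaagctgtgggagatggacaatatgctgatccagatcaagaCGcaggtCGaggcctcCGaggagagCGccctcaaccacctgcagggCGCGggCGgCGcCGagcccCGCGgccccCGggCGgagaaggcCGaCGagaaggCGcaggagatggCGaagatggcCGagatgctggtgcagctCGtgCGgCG
Gm5251 (chr1:17394979-17395278, plus strand): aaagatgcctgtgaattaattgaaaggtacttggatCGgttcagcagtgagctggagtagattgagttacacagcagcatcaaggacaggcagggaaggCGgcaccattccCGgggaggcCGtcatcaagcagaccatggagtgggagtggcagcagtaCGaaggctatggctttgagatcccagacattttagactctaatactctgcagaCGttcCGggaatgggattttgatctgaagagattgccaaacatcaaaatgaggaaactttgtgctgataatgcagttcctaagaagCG
In the stretches shown, Gm7862 holds 17 CpGs, of whose calls 9.94% were methylated in WT and 14.8% in TCKO. Gm15321 holds 14 CpGs, at 1.19% and 1.06%. Rpl36-ps3 holds 25 CpGs, at 93.6% and 94.3%. Gm5814 holds 41 CpGs, of whose 114 WT calls 0 were methylated, while 3 of 183 calls (1.64%) were in TCKO. Gm5251 holds 8 CpGs, at 17.9% of 151 calls in WT and 73.6% of 140 calls in TCKO. CpG-rich copies thus stood at both ends of the scale in WT, and Gm5251 was the copy with the largest called rise among those with at least 100 calls in each library.

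The next pair sets a copy of low identity beside the coding sequence of its parent, to show the loss of CpGs. Gm16419 derives from Rps7, a protein of the small ribosomal subunit, and capitals here mark the CpGs of the parent and what the copy holds at the same place. The parent's stretch runs from base 108 to base 300 of the spliced transcript, all coding, and the Rps7 gene lies on chromosome 12.
Rps7: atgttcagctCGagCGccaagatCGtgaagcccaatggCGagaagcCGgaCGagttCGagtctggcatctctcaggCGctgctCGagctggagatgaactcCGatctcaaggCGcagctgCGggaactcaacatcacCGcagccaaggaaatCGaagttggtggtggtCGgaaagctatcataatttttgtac
Gm16419 (chr13:12171947-12172139, minus strand): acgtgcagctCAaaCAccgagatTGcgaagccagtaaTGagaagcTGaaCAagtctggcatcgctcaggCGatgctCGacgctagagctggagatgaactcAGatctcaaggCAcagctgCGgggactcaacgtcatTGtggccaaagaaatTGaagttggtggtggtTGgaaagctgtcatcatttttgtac
The aligned stretch was 78% identical and held 15 parental CpGs. In the copy 3 of them were still CG, 6 read TG, 4 read CA and 2 were otherwise changed or deleted. The copy also holds CpGs in lower case that the parent lacks. Over its whole length Gm16419 holds 14 CpGs, and kept 5 of 27 aligned parental CpGs. Of the 109 calls in each library over the stretch shown, at kept and other CpGs together, 31.2% were methylated in WT and 79.8% in TCKO.

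In pooled calls, processed pseudogenes were more methylated than their surroundings in both libraries, and were less raised in TCKO than these. The pooled level of the 5370 pseudogenes was 76.8% (76.8% to 76.9%, 928112 calls) in WT and 79.7% (79.6% to 79.8%, 771773 calls) in TCKO, a difference of 2.85 percentage points (2.73 to 2.98). The 2 kb on each side, for the 5367 members with at least 30 flank calls in each library, stood at 72.0% in WT and 77.0% in TCKO, a difference of 5.02 points (4.94 to 5.10). The pseudogenes thus stood 4.88 points (4.77 to 4.98) above their flanks in WT and 2.71 points (2.60 to 2.81) in TCKO. The difference between the 2 differences was -2.17 points (-2.32 to -2.02). Of the 5367 members, 3148 (58.7%) had a smaller difference between TCKO and WT than their own flanks. All of these intervals cover counting error only, and calls of 1 read are not independent. The flanks of 315 members meet the body or flanks of another member, and 27 members overlap one.

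Seen member by member, 3853 (71.8%) were above their flanks in WT, and 1998 (37.2%) were so at an adjusted p below 0.05 in the Fisher exact test within that library, adjusted over all genes. Of all autosomal genes, 43.2% passed that test above their flanks. Below their flanks in WT were 534 members (9.95%) at an adjusted p below 0.05, against 20.2% of all genes. In TCKO 1335 members (24.9%) were above and 389 (7.25%) below their flanks by the same test, against 37.7% and 17.2% of all genes. Protein-coding genes had a median of 2015 WT calls, so the test reaches smaller differences in them than in pseudogenes. The median difference to the flanks was 6.16 points in WT and 4.34 points in TCKO. The Pearson r between the level of a pseudogene and that of its flanks was 0.355 in WT and 0.490 in TCKO. It was taken across the 5367 members, which share the same 2 libraries. Counting error in single levels lowers such an r, and no allowance was made for it.

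The steepest step in WT lay 200 bp upstream of the annotated start of the pseudogene, while the start itself showed little change. Across the start the level went from 77.3% to 77.6% in WT, and across the end from 76.3% to 74.7%. In the sense of the pseudogene, the 200 bp window that ends at its start stood at 77.3% in WT, while the window before it stood at 72.3% and the outermost upstream window at 70.4%. The window next to the start also held 1.80 CpGs per 100 bp, against 0.938 in the window before it. On the other side, the first 200 bp after the end stood at 74.7% in WT and the next 200 bp at 73.4%, with 0.882 and 0.781 CpGs per 100 bp. Inside the pseudogene the 10 windows ran from 76.3% to 77.6% in WT and from 78.7% to 80.6% in TCKO, and CpG density was highest in the first, at 2.17 per 100 bp, and lowest in the last, at 1.40. In each of the 30 windows TCKO stood above WT, with a gap of 2.39 to 3.71 points inside the pseudogene and of 3.62 to 5.74 points in the flanks. A run of at least 8 A within 100 bp of the end was found downstream of 827 members (15.4%) and upstream of 263 (4.90%).

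**Figure D1:**
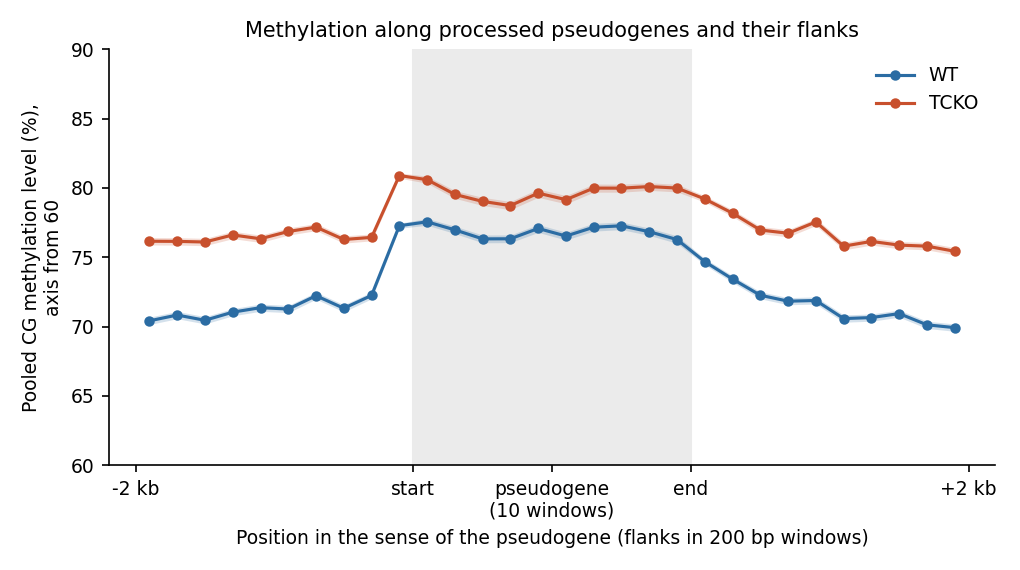
Share of methylated calls (y axis, %, starting at 60) along processed pseudogenes, in 10 windows of 200 bp of each flank and 10 equal windows of the pseudogene (shaded), for WT (blue) and TCKO (red), with bands for the 95% Wilson intervals. Both lines rise towards the pseudogene, from 70.4% in the outermost upstream window to 77.6% in its first window in WT and from 76.2% to 80.6% in TCKO. The gap between the lines is smallest, at 2.39 points, inside the pseudogene.

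Most pseudogenes moved little between the libraries. The median level was 79.6% in WT and 83.0% in TCKO, and the median difference 2.67 points, with the middle 80% of members between -6.15 and 13.3 points. The level was higher in TCKO in 3585 members (66.8%), lower in 1776 and equal in 9. A member was called where the Fisher exact test of its calls gave an adjusted p below 0.05, adjusted over the 40093 autosomal genes tested, and the levels differed by at least 20 points. By this rule 210 members (3.91%) were called higher in TCKO and 18 (0.335%) lower. Of all tested autosomal genes 2.85% were called higher and 0.132% lower, and of 1 kb autosomal windows under the same coverage rule 8.73% and 0.154%. Among unprocessed pseudogenes, 13 of 1083 (1.20%) were called higher. Without the demand for 20 points, 634 members (11.8%) were higher and 95 (1.77%) lower at an adjusted p below 0.05 in the Fisher exact test. The share of all genes without that demand is not given here, so these 2 counts have no background to be read against.

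**Figure D2:**
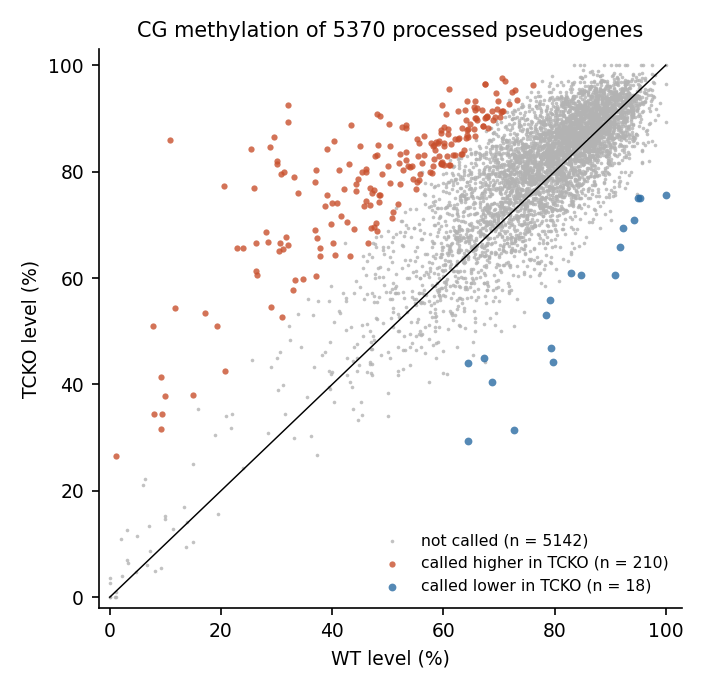
CG methylation level of each of the 5370 processed pseudogenes in WT (x axis, %) and TCKO (y axis, %), each point 1 pseudogene, with the diagonal of equal levels. The 210 called higher in TCKO (red) reach from near 0 to above 70% in WT, and the 18 called lower (blue) all lie above 60% in WT.

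Small regions inside the pseudogenes were also examined, as 200 bp bins with at least 4 CG cytosines, a mean of at least 4 calls per cytosine in each library, called where the levels differed by more than 40 points at an adjusted p below 0.05. Of 7342 testable bins in the pseudogenes 85 (1.16%, 0.937% to 1.43%) were higher in TCKO and 0 lower. In the flanks 489 of 23920 bins (2.04%, 1.87% to 2.23%) were higher and 6 lower. Of all 2444635 testable autosomal bins 2.93% were higher and 0.0343% lower. The 85 bins lay in 75 of the 3617 members that had a testable bin.

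The 10 called members with the largest rise, among the 2574 with at least 100 calls in each library, came from parents of several kinds. Gm5251 (ENSMUSG00000100398, chromosome 1 from 17394958 to 17395429, intergenic), a copy of the translation-associated gene Tma16 at 95.6% identity, had 20.5% (15.6% to 26.4%) of 215 calls methylated in WT and 77.2% (70.6% to 82.7%) of 180 calls in TCKO, and its flanks 73.0% and 86.5%. It is 206472 bp from the nearest start of a protein-coding gene, Pi15. Gm13785 (ENSMUSG00000081730, chromosome 2 from 92312154 to 92312843), a copy of Rps6, a protein of the small ribosomal subunit, at 74.2% identity, stood at 28.8% in WT and 84.6% in TCKO, with flanks at 79.2% and 89.5%. Gm5251 and Gm13785 lay far below their flanks in WT and nearer to them in TCKO. The 10 were chosen for their rise, so a low level in WT and a high one in TCKO partly follow from the choice.

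Gm16419, the Rps7 copy printed above (ENSMUSG00000113848, chromosome 13 from 12171526 to 12172150, intergenic), had 30.8% of 227 calls methylated in WT and 79.6% of 196 in TCKO. Gm8712 on chromosome 13, a copy of Snf8, a subunit of the ESCRT-II complex, kept all 14 aligned parental CpGs and stood at 33.1% in WT and 78.9% in TCKO. Rpl10-ps2 on chromosome 8, from the large-subunit protein gene Rpl10, stood at 43.4% and 88.7%. Gm18945 on chromosome 13, with no match over 50% of its length, stood at 30% and 82.0%, and Gm49568 on chromosome 16, matched to the RNA-binding protein gene Hnrnpdl, at 45.0% and 84.8%. In each of these 5 the flanks stood between 63.2% and 81.0% in WT.

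The others were Gm29519 on chromosome 1, at 50.3% in WT and 89.0% in TCKO and 735 bp from the start of Daw1, Gm9086 on chromosome 14, at 39% and 75.6%, and Gm2027 on chromosome 12. Gm2027 derives from Naf1, a factor of small nucleolar RNP assembly, lies 375 bp from the start of Pnpla8, overlaps an exon of another gene and holds 5.52 CpGs per 100 bp. It stood at 28.5% of 309 calls in WT and 66.8% of 202 in TCKO. The flanks of Gm2027 stood at 80.3% and 83.5%, and those of Gm9086 at 81.8% and 89.0%, so both copies stayed well below their flanks in TCKO. Gm29519 stood above its flanks in both libraries, with these at 47.1% and 62.0%. The adjusted p of the Fisher exact test, ran from 7.54e-09 to 2.16e-31 over the 10.

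None of the 18 called lower had 100 calls in each library (0 of 18), so no fall is named by the same rule. Of these 18, 4 were among the 149 copies of Gapdh, the glycolytic enzyme. Over all members 0.335% were called lower, and over all genes 0.132%. The Gapdh copies had only 2.01 calls per CG cytosine in WT and 1.62 in TCKO. Bloc1s2-ps, named after its values were seen, had the smallest adjusted p among the 18, at 1.27e-06, with 72.7% of 121 calls in WT and 31.5% of 54 in TCKO.

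Processed pseudogenes stayed methylated at CpG densities where other sequence did not. In WT the 66 pseudogenes with at least 6 CpGs per 100 bp had a pooled level of 73.8% (73.0% to 74.6%) and a median of 83.7%, while 9514 autosomal 1 kb windows of that density stood at 8.42%. At 4 to 6 CpGs per 100 bp, 313 pseudogenes stood at 79.0% and windows at 33.6%, and at 3 to 4, 570 pseudogenes stood at 81.5% and windows at 62.8%. Below 1 CpG per 100 bp the order was the other way, with 69.8% in 1045 pseudogenes and 71.6% in windows. In the classes between, 1992 pseudogenes of 1 to 2 CpGs stood at 76.4% and 1384 of 2 to 3 at 80.3%, against 72.8% and 69.8% in windows. Windows of a given density are longer than most pseudogenes and include promoters, and pseudogene and window were not matched for anything else.

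The difference between TCKO and WT was smallest in the CpG-densest pseudogenes when calls were pooled. It was 2.38 points (2.07 to 2.69) below 1 CpG per 100 bp, 3.62 points (3.41 to 3.83) at 1 to 2, 2.95 points at 2 to 3, 2.63 points at 3 to 4, 1.79 points (1.32 to 2.26) at 4 to 6 and 0.0511 points (-1.17 to 1.27) at 6 and over. The flanks of these same classes differed by 4.03, 5.04, 5.09, 5.87, 5.70 and 5.42 points. The flanks of the densest pseudogenes were thus raised like those of the others, while the interval of the densest pseudogenes themselves spanned 0. The value of the densest class depended on the processing. It was 1.77 points with each pseudogene counted once, though the median difference of its 66 members was 0.0566 points. It was -0.0870 points without cytosines of more than 30 calls and -0.587 points without members of at least 95% identity. A set chosen by another measure, the 65 members with an observed over expected CpG ratio of 0.8 and over, differed by 1.53 points. In windows of 6 and over the difference was 0.877 points. Where the flanks stood at 65% or more in WT, the 48 densest pseudogenes had 83.3% in WT and 82.3% in TCKO.

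**Figure D3:**
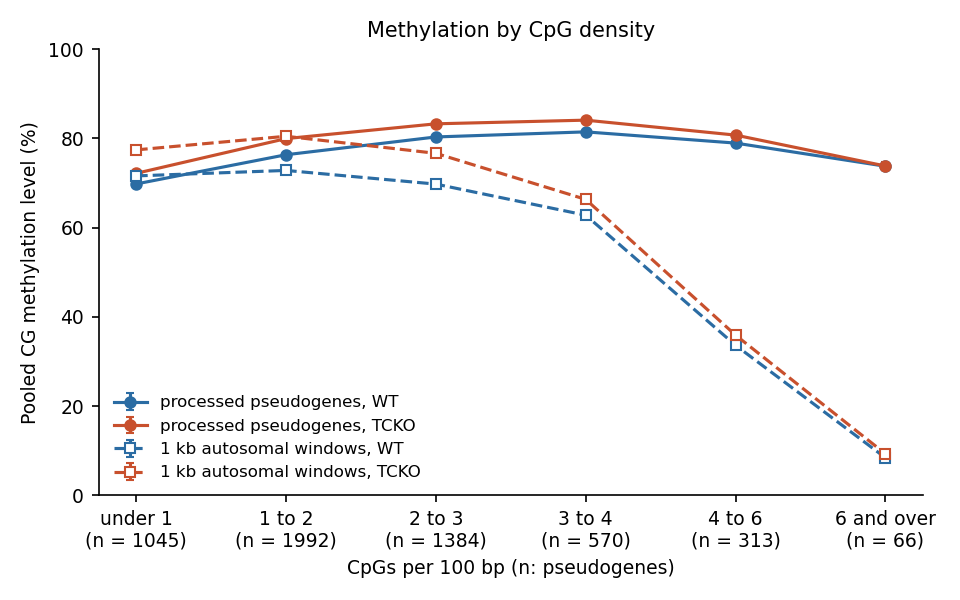
Share of methylated calls (y axis, %) by CpGs per 100 bp (x axis) of processed pseudogenes (filled circles, solid lines) and of 1 kb autosomal windows (open squares, dashed lines) in WT (blue) and TCKO (red), with 95% Wilson intervals that are mostly smaller than the symbols. Windows fall to 8.42% in WT in the densest class, where the 66 pseudogenes stand at 73.8% in both libraries.

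The densest class held copies at both extremes. Of its 66 members, 39 stood at 80% or more in WT, 14 below 20% and 13 between, and 33 were higher in TCKO. Copies of Rpl36 made up 16 of the 66, at a pooled 86.9% in WT and 87.6% in TCKO, and the other 50 stood at 68.4% and 68.0%. Of the 5 members with the highest CpG density and at least 100 calls, 4 were Rpl36 copies: Rpl36-ps2 at 90.9% in WT and 83.1% in TCKO, AC159289.2 at 95.7% and 83.9%, Rpl36-ps3 at 93.6% and 94.3%, and Gm13611 at 79.7% and 82.4%. The densest of all, Gm5814 with 12.8 CpGs per 100 bp (ENSMUSG00000096361, chromosome 17 from 47410363 to 47410737, intergenic), had 0 of 148 calls methylated in WT, whose 95% interval reaches 2.53%, and 2.65% of 226 calls in TCKO. Its flanks stood at 50.6% and 51.1%.

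Pseudogenes under 20% in WT were few and rich in CpG. There were 44 with a WT level under 20%, and 27 of them were also under 20% in TCKO. Their median CpG density was 4.31 per 100 bp, against 1.79 in the other 5326, while their flanks had a median of 59.4% in WT. Of the 44, 3 (6.82%) lay within 1 kb of the start of a protein-coding gene, against 43 (0.807%) of the other 5326. An exon of another gene type was overlapped by 6 of the 44 and 237 of the others. Since they were chosen by their WT level, that 12 of them were called higher in TCKO is a description. Among members with at least 100 calls, the lowest after Gm5814 were Gm15321 at 1.19% in WT and 1.06% in TCKO, Gm7285 at 3.06% and 12.7%, Zfp520-ps at 4.67% in both, and Gm11663 at 6.02% and 21.1%. Gm7285, an Rps7 copy 535 bp from the start of Mospd3, has flanks at only 37.9% in WT. At the other end, Gm11623 had 98.0% of 496 calls methylated in WT, Gm2805, a copy of the myosin light chain gene Myl12b, 97.6%, and Gm35638, a copy of Derl1 of the ER degradation pathway, 96.3%.

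The copies that stood farthest above their flanks in WT included Gm15730, from the large-subunit protein gene Rpl27, at 94.2% against 35.4% in its flanks, and Gm336 at 80.1% against 23.5%. In the same group were Gm12608 at 90.5% against 35.1%, Gm6501, a copy of the RNA-binding protein gene Syncrip, at 73.4% against 21.2%, and AC130218.1 at 79.4% against 22.8%. In TCKO the flanks of Gm12608 stood at 74.6% and those of Gm15730 at 65.5%, while the copies stood at 92.4% and 94.4%. Farthest below their flanks in WT were E130201H02Rik, matched to the cold-shock protein gene Ybx1, at 13.9% against 81.6%, Gm7862 at 9.94% against 70.7%, Gm11663 at 6.02% against 66.2%, Zfp520-ps at 4.67% against 62.6% and Gm11424, from the histone methyltransferase gene Kmt5a, at 14.9% against 68.5%. Of these 5, Gm11424 was called higher in TCKO, at 38% of 213 calls, with an adjusted p of 1.96e-08 in the Fisher exact test.

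Each pseudogene was matched with blastn to the spliced protein-coding transcripts of the annotation, and 4720 members (87.9%) had a match over at least 50% of their length, to 1657 parents in all. Single blocks, with no intron in the annotation, were 4682 of the members (87.2%). The pseudogenes were richer in CpG than their surroundings in 4830 cases (89.9%), with a median of 1.80 CpGs per 100 bp against 0.775, and richer in GC in 4775, with a median of 48.1% against 41.6%.

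Copies held fewer of their parents' CpGs the less identical they were to the parent. Of 101793 parental CpGs in the alignments 48.6% were kept as CG, 18.6% read TG, 16.3% read CA and 16.5% were otherwise changed or deleted. In the 1522 copies of at least 95% identity 80.6% were kept, in the 1197 of 90 to 95% 50.9%, in the 1386 of 80 to 90% 29.3% and in the 615 under 80% 10.6%. Identity counts the same substitutions as CpG loss, so the 2 measures are not independent. CpGs kept from the parent stood at 78.8% in WT and 81.4% in TCKO, a difference of 2.54 points (2.38 to 2.71). The other CpGs inside the aligned copies stood at 74.8% and 78.7%, a difference of 3.91 points (3.65 to 4.16). Both kinds were pooled over all copies, and 25962 of the 49434 kept CpGs lay in copies of at least 95% identity. The contrast was not made within copies or within classes of identity, so it cannot be told apart from identity.

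**Figure D4:**
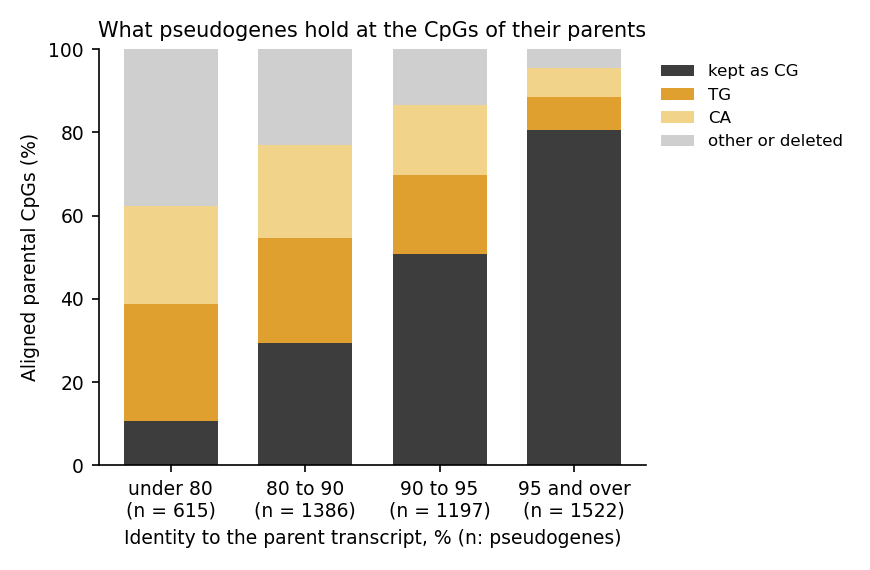
Share of the aligned parental CpGs (y axis, %) that a pseudogene holds as CG, TG, CA or otherwise changed or deleted, by its identity to the parent transcript (x axis). The share kept as CG runs from 10.6% under 80% identity to 80.6% at 95% and over.

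The less identical copies also differed more between the libraries. The pooled level was 73.9% in WT and 78.8% in TCKO in the 809 members under 80% identity, a difference of 4.91 points (4.53 to 5.28). It was 2.94 points in the 1592 of 80 to 90%, 2.56 points in the 1300 of 90 to 95%, and 2.27 points (2.07 to 2.48) in the 1567 of at least 95%, which stood at 79.6% in WT and 81.9% in TCKO. The flanks of these classes differed by 6.09, 4.88, 4.71 and 4.97 points in the same order. In each class the flanks thus differed more than the copies, and they too differed most under 80% identity. Members called higher numbered 56 (6.92%), 73 (4.59%), 40 (3.08%) and 35 (2.23%) in the same order, against 2.85% of all genes. Depth moved with identity. Over all annotated processed pseudogenes WT calls per CG cytosine went from 5.45 under 80% identity to 4.71 at 95% and over. In the members this value went from 5.65 to 4.92. Their median CpG density went the other way, from 1.16 to 2.55 CpGs per 100 bp. The 809 members under 80% held 107945 WT calls and the 1567 of at least 95% held 302917. Members under 80% thus had fewer calls each on average, so their levels are coarser against the fixed cut-off of a call. The parts of depth, CpG density and calls per member in these differences and shares were not tested.

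Levels and differences also varied with where a pseudogene lay. The 4070 intergenic members stood at 76.0% in WT and 78.6% in TCKO, the 490 inside a gene in its sense at 79.4% and 83.2%, and the 810 inside a gene in antisense at 80.3% and 84%. Sense and antisense members differed by 3.72 and 3.73 points, and intergenic ones by 2.60 points (2.46 to 2.75). Within 1 kb of a protein-coding start but not across it, 37 members stood at a pooled 66.8% and 72.2%, a difference of 5.37 points (3.62 to 7.10). Their median difference was only 2.17 points, against 2.67 points in all members, and 24 (64.9%) were higher in TCKO, against 66.8%. Pseudogenes in surroundings under 50% in WT still stood at 69.5% (211 members), while those in surroundings of 80% or more stood at 83.8% (1042 members). By chromosome the WT level ran from 72.9% on chromosome 17 to 80% on chromosome 15, and the difference from 1.27 points on chromosome 19 to 4.64 points on chromosome 16, so every autosome was higher in TCKO.

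The other pseudogene types differed from the processed ones in level and rise, but their pooled levels also stood above those of their flanks. The 1083 unprocessed pseudogenes, which arise by duplication of DNA, stood at 65.5% in WT and 66.7% in TCKO, a difference 1.71 points (1.51 to 1.91) smaller than that of the processed ones. The 245 transcribed processed pseudogenes stood at 70.4% and 75.5%, and the difference of the processed ones minus theirs was -2.19 points (-2.44 to -1.95). Over 20432 protein-coding genes the difference was 6.95 points. The flanks of the unprocessed pseudogenes stood at 55.8% in WT and 55.6% in TCKO. Those of the transcribed processed ones stood at 66.7% and 72.5%. The median difference to the flanks in WT was 1.09 points in unprocessed and 3.26 points in transcribed processed pseudogenes. It was 7.38 points in protein-coding genes, against 6.16 points in processed pseudogenes.

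Ribosomal protein copies made up 1367 members and glycolysis copies 201, and these families did not move alike. The ribosomal copies stood at 81.7% in WT and 84.9% in TCKO, a difference of 3.22 points (2.96 to 3.47), with 50 (3.66%) called higher and 2 lower. The glycolysis copies stood at 83.7% and 83.6%, a difference of -0.0676 points (-0.962 to 0.821), with 1 (0.498%) called higher and 4 lower. Over all members 3.91% were called higher and 0.335% lower. Depth also differed, with 2.22 WT and 1.74 TCKO calls per CG cytosine in glycolysis copies, against 5.15 and 4.27 in ribosomal copies. Of the glycolysis copies, 149 were Gapdh copies, at 83.9% and 83.3%, with 80 of the 149 higher in TCKO. The flanks of the Gapdh copies differed by 5.28 points.

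The remaining families lay between 1.70 and 4.96 points. The 212 copies of chromatin protein genes such as Hmgb1 and H3f3a stood at 75% in WT and 77.7% in TCKO, and the 114 of translation factors at 78.9% and 82.0%. The 89 respiratory chain copies stood at 79.3% and 83.2% and the 119 of hnRNP and splicing genes at 79.9% and 83.6%. Copies of ubiquitin and proteasome genes (85), chaperones (53), the cytoskeleton (47), cyclophilin A (27), ferritin (14) and keratins (5) differed by 3.95, 3.65, 2.11, 2.44, 3.27 and 1.70 points, and the intervals of cyclophilin A, ferritin and keratins reached below 0. The 3016 members of no listed family differed by 2.78 points. Called higher were 7 respiratory chain copies (7.87%), 7 of hnRNP and splicing genes (5.88%), 6 of translation factors (5.26%), 5 of chromatin genes (2.36%), 4 of ubiquitin and proteasome genes (4.71%), 3 of chaperones (5.66%) and 2 of cyclophilin A (7.41%), against 2.85% of all genes. No copy of cytoskeleton, ferritin or keratin genes was called. The copy with the most calls was Hspd1-ps3 among the chaperones, at 76.9% of 1003 calls in WT and 80.1% of 960 in TCKO, Gm5576 of Eif4a3 among the translation factors, at 89.7% and 89.2%, and Rps3a2 among the ribosomal ones, at 87.1% and 86.0%. The corresponding copies of hnRNP, chromatin and ferritin genes were Gm6159 at 79.2% and 87.6%, Gm8705 at 88.3% and 89.7%, and Gm15590 at 60.6% and 73.4%. Gm6560 of Pkm among the glycolysis copies stood at 81.8% and 86.1%, BC002163 of Ndufs5 among the respiratory chain copies at 89.3% and 84.1%, Gm14046 of Ppia at 85.9% and 87.4%, Gm6375 of Actg1 at 79.8% and 85.1%, Gm13260 of Psmc6 at 81.3% and 81.1%, and Gm5200 of Krt18 at 86.6% and 85.1%. None of these 12 was called.

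No member was matched to a listed osteoblast gene or to a Tet gene. Of pluripotency and germline genes, a short list of Nanog, Pou5f1, Dppa3, Dppa5a, Zfp42 and Utf1 was used, and these had 13 copies, at a pooled 76.7% in WT and 81.6% in TCKO, with 1 called. That was Gm5712, a copy of Pou5f1, the gene of the transcription factor OCT4, at 63.3% of 158 calls in WT and 83.3% of 102 in TCKO (adjusted p = 0.00111, Fisher exact test). The 2 other Pou5f1 copies had few calls, with Gm21054 at 78.3% of 60 calls and 82.8% of 58, and Gm18926 at 47.2% of 53 and 46.7% of 45. Copies of Dppa3, which encodes the oocyte and germ cell factor STELLA, included AC117805.1 at 87.7% in WT and 92.1% in TCKO, Gm47576 at 76.4% and 77.8%, Gm15620 at 74.3% and 81.0%, AC149589.1 at 78.1% and 89.2%, Gm49203 at 79.5% and 85.4%, and Gm13259 at 54.0% and 49.4%. Zfp42-ps1, from the pluripotency marker gene Zfp42, stood at 90.7% and 86.2%, and the 3 Dppa5a copies Gm5229, Gm6083 and Gm17772 at 87.9%, 80.6% and 73.2% in WT and 84.1%, 78.6% and 82.0% in TCKO. Dppa2, another gene of this kind outside the list, had 10 copies at 75.2% and 81.1%, with 1 called higher.

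Genes that act on DNA methylation had 8 copies, at 81.6% in WT and 83.8% in TCKO, a difference of 2.18 points (-0.336 to 4.66). Of these, 5 came from Tdg, whose glycosylase removes the oxidised bases that TET enzymes make. Tdg-ps stood at 84.6% of 824 calls in WT and 85.0% of 566 in TCKO, Gm5597 at 88.7% and 91.3%, Gm5197 at 77.5% and 79.2%, and Gm9855 at 92.9% in both. The fifth, AC122846.1, was called lower with few calls, at 79.4% of 34 calls and 46.9% of 32 (adjusted p = 0.0198, Fisher exact test). Dnmt3a-ps1 stood at 77.1% and 72.2%, and Gm15953, from the maintenance factor gene Uhrf1, at 81.2% and 84.5%. Dnmt3l-ps1, from the cofactor of the de novo methyltransferases, stood at 53.1% of 130 calls in WT and 72.5% of 69 in TCKO, just short of the 20 points of a call.

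Copies were also grouped by single parents, of which 181 had at least 5 members and 2624 members together. The median of these parents' pooled WT levels was 80%, with a range from 20% to 90%, and the pooled level was higher in TCKO for 146 of the 181. The 3 parents described next were picked after these values were seen, so their levels are a description with no test of the choice. Across 1590 parents with at least 30 calls in each library over the exons of the parent transcript, the exons stood at 73.6% in WT and 78.9% in TCKO, and the copies at 77.3% and 80.3%. All exons of a parent were pooled, with the first exon and bases that no copy aligns to, so exons and copies are not the same sequence.

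Copies of Rps7 were the most numerous of the 9 parents whose copies differed by more than 10 points. The 25 members, of 32 annotated, had a pooled level of 60.7% (59.3% to 62.1%, 4420 calls) in WT and 76.9% (75.5% to 78.2%, 3842 calls) in TCKO, a difference of 16.2 points (14.2 to 18.1). Their flanks differed by 6.96 points, from 67.1% to 74.0%. Single copies ran from 3.06% to 93.9% in WT with a median of 66.7%, and from 12.7% to 92.9% in TCKO with a median of 82.9%. Below 60% were 11 copies in WT and 1 in TCKO, and the low copies of WT lay with the others in TCKO except for Gm7285.

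Of the 25, 21 were higher in TCKO and 9 (36%) were called higher, against 3.91% of all members. Besides Gm16419, Gm5055 on chromosome 9 went from 47.8% of 272 calls in WT to 83.0% of 218 in TCKO, and Gm21112 on chromosome 8 from 40.9% of 467 to 74.1% of 367. Gm8748 on chromosome 8 stood at 59.8% and 92.6%, and Gm49063 on chromosome 14, at 65.8% identity to Rps7, at 50.5% and 77.9%. Others were as high in WT as in TCKO, with AC121967.1 at 86.6% and 85.8% and Gm7351 at 87.5% and 83.1%. Copies of Rps7 were thus not all low in WT.

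The surroundings of 7 of the Rps7 copies, 6 of them on chromosome 8, matched those of another over at least 50% of the 2 kb on a side at 80% identity or more. These copies therefore share sequence around them as well as their parent. The copy on chromosome 19, AC121967.1, matched 1 of the others and is 98.6% identical to Rps7, while the 6 on chromosome 8 are 89.4% to 90.8% identical to it. Whether they arose by duplication or share a repeat was not tested. Without the 7, the other 18 stood at 63.6% in WT and 76.7% in TCKO, a difference of 13.1 points (10.6 to 15.5), with 4 called higher. Along the Rps7 transcript, windows of 100 bases stood between 50.3% and 66% in WT and between 68.3% and 80.8% in TCKO, and TCKO was higher in each of the 6 windows, by 8.24 to 23.9 points. The exons of Rps7 itself stood at 63.1% of 225 calls and 66% of 191.

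Copies of Hmgn1 were the least methylated of the 181 groups, and were so in both libraries. The 7 members, of 15 annotated, had a pooled level of 20% (17.5% to 22.8%, 888 calls) in WT and 18.8% (16.6% to 21.3%, 1088 calls) in TCKO. Gm15321 stood at 1.19% in WT and 1.06% in TCKO, Gm34379 at 3.30% and 6.51%, Gm11663 at 6.02% and 21.1%, Gm6633 at 7.22% and 8.65%, and Gm7862 at 9.94% and 14.8%. Gm48344 stood at 46.9% and 43.8%, and Gm34779 at 81.0% and 73.0%. The first 5 lay on 4 chromosomes in surroundings between 47.1% and 70.7% in WT, none had surroundings that match those of another by the rule used for Rps7, and all 7 were at least 5683 bp from the nearest protein-coding start.

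The 5 low Hmgn1 copies held 3.45 to 5.82 CpGs per 100 bp, and the other two 2.72 and 2.28. Of the 19 aligned parental CpGs, Gm7862 kept 16, Gm11663 14, Gm15321 and Gm6633 10 and Gm34379 9, while Gm34779 kept 6. None was called, and the pooled difference was -1.20 points (-4.74 to 2.29). Gm11663 differed by 15.1 points with an adjusted p of 0.000281 in the Fisher exact test, under the 20 points of a call. The exons of Hmgn1 itself stood at 78.2% of 427 calls in WT and 71.9% of 398 in TCKO.

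Copies of Rpl36 were mostly methylated, with a median CpG density of 6.4 per 100 bp against 4.07 in the Hmgn1 copies. The 29 members, of 35 annotated, stood at 86.1% (85.0% to 87.1%, 4341 calls) in WT and 87.3% (86.1% to 88.3%, 3594 calls) in TCKO, with 1.59 to 8.04 CpGs per 100 bp. In WT 27 of the 29 stood at 70% or more. The 2 others were Rpl36-ps8, at 39.4% in WT and 42.6% in TCKO with 7.62 CpGs per 100 bp, and Gm49056, at 53.3% and 88.7%, the 1 Rpl36 copy called higher. The Rpl36 copies Gm11997 and Gm46524 have matching surroundings. In WT the Rpl36 copies ran from 39.4% to 96.2% and the 7 Hmgn1 copies from 1.19% to 81%, so the ranges overlap.

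**Figure D5:**
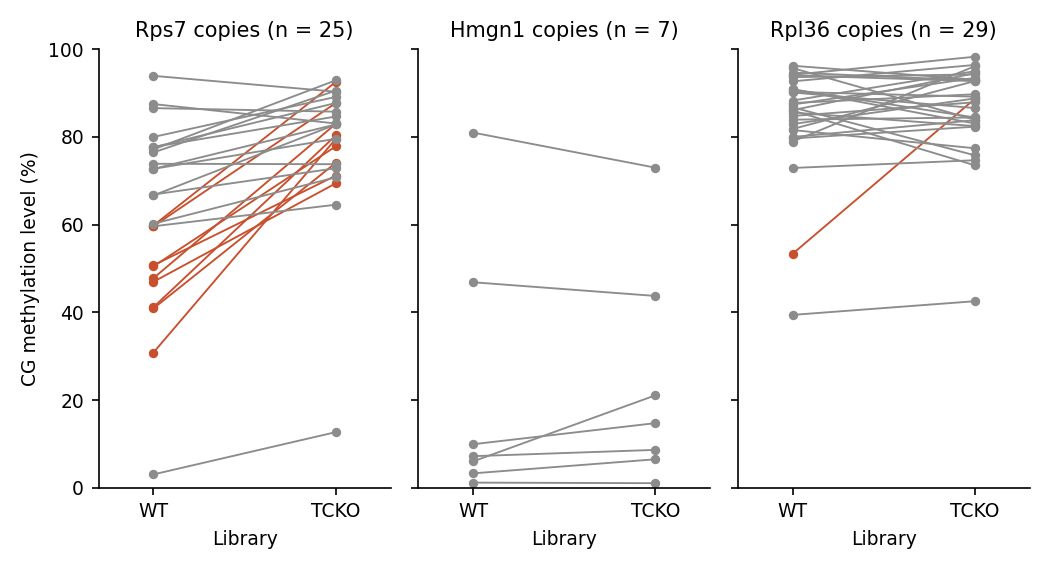
CG methylation level (y axis, %) of each copy of Rps7, Hmgn1 and Rpl36 in WT and TCKO (x axis), each line 1 copy, with copies called higher in TCKO in red. Of the 25 Rps7 copies 9 are red, 5 of the 7 Hmgn1 copies lie below 22% in both libraries, and 27 of the 29 Rpl36 copies lie above 70% in WT.

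Other parents with many copies differed less between the libraries than Rps7. The 56 copies of Rps6 stood at 76.9% in WT and 82.7% in TCKO, with 46 higher in TCKO and 4 (7.14%) called higher. The 31 of Rpl9 stood at 74.6% and 81.1%, with 3 (9.68%) called higher. Over all members 3.91% were called higher, and over all genes 2.85%. The 94 copies of Hmgb1, the chromatin protein gene, stood at 74.4% and 77.4%, and the 122 of Rpl7a at 82.7% and 84.2%. Copies of Rpl29 (52) and Rpl15 (25) were among the most methylated, at 88.0% and 88.8% in WT and 88.5% and 90.4% in TCKO. The exons of Rpl29 itself, first exon included, stood at 21% of 62 calls in WT and 6.94% of 72 in TCKO. Such a gap was not general, since the exons of Rps6 stood at 74.6% of 374 calls in WT. The pseudogenes of 1 parent share their sequence, and reads that fit several copies equally were not kept by the authors' alignment, so near-identical copies are seen through fewer reads.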

How the data were processed

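WGBS data of 2 libraries, 1 WT and 1 TCKO, were used, and each library was assigned by its genotype label. Per the study's methods, BSMAP 2.74 was run against GRCm38 with up to 2 mismatches and only uniquely placed reads were retained. The deposited values are raw counts, with no normalization: for every CG cytosine, methylated calls and all calls. The submitters' processing notes also name CASAVA. Removal of duplicate reads is not given in the sources used here.

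Calls were pooled over each autosomal gene of GENCODE M21 and over the 2 kb on each side. Levels carry Wilson intervals, differences Newcombe intervals, and p-values come from two-sided Fisher exact tests with Benjamini-Hochberg adjustment over all 40093 genes that passed the coverage rule. The median of 124 WT calls per pseudogene makes single pseudogenes coarse. Parents were the best match of BLAST 2.17.0 (blastn, e-value up to 1e-10, sense strand) among spliced protein-coding transcripts. Members and gene lists were chosen with earlier results of these data known. Genes were named by rule: with at least 100 calls, the 10 largest called rises, the 5 largest called falls, the extremes of WT level, CpG density and difference to the flanks, the copies of germline and DNA methylation genes, and per other family the copy with the most calls. Exceptions are the copies of Rps7, Hmgn1 and Rpl36, the parents with many copies, and Bloc1s2-ps. The code was tested on simulated data. Alternatives changed pooling, coverage, flanks, overlap, identity and thresholds. Other contexts than CG were not used here. Computations used Python 3.11.15, numpy 2.4.6, pandas 2.3.3, numba 0.67.0 and matplotlib 3.10.9.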

Additional observations from a re-analysis of the deposited data

How the results depend on the processing

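Every alternative kept pseudogenes above their flanks in both libraries and raised in TCKO, and every alternative kept the flanks more raised than the pseudogenes. With the levels of single cytosines averaged in place of pooled calls, the flanks differed by 5.34 points, and pseudogenes stood 6.78 points above their flanks in WT and 4.17 in TCKO. With each pseudogene counted once, the difference was 3.40 points in pseudogenes, 4.80 in flanks and 1.77 in the CpG-densest class, and pseudogenes stood 5.54 and 4.14 points above their flanks. With at least 60 calls the flanks differed by 4.94 points, and 139 members were called higher and 2 lower. Without cytosines of more than 30 calls the flanks differed by 5.19 points, the pseudogenes stood 5.11 and 2.84 points above them, and the densest class turned to -0.0870 points. Without members of at least 95% identity the difference was 3.15 points in pseudogenes and -0.587 points in the densest class, pseudogenes stood 3.89 and 2.00 points above their flanks, and 9 were called lower. Flanks of 1 kb differed by 4.69 points, with pseudogenes 3.70 and 1.87 points above them. Flanks without cytosines near a protein-coding start left pseudogenes 4.43 and 2.27 points above them. The 65 members with an observed over expected CpG ratio of 0.8 and over, a set chosen by another measure, differed by 1.53 points. With a difference of at least 10 points 511 were called higher and 68 lower, and with at least 40 points 27 and 1. The sign in the densest class thus changes with the processing, and the cause was not tested. Leaving out the Rps7 copies with matching surroundings was chosen after seeing the data and gave 13.1 points in place of 16.2. Leaving out a replicate was not possible with 1 library per genotype. No paired analysis was possible because the groups share no replicates.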
